A study of Homo sapiens with 52 samples.

Results

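The genes described here were 10 members of the Slit, Robo, netrin and ephrin families of guidance molecules, namely SLIT2, SLIT3, ROBO1, NTN4, UNC5B, EFNA1, EFNB1, EFNB2, EPHB2 and EPHB4. They were listed by gene symbol with earlier results of these data known, and each matched 1 of the 78894 genes in the gene-level values. Counts of members beside the share of all genes are thus a description. The study sequenced mRNA of the established claudin-low breast cancer cell lines SUM159PT, MDA-MB-231 and HS578T after knockdown of NRP1, which encodes the co-receptor neuropilin-1. Knockdown was transient, with 20 nM of siNRP1#3 or siNRP1#5 and siNT as control and RNA taken 72 hrs after transfection, or stable, with lentiviral shNRP1#3 or shNRP1#5 and shNT as control. Stable cells underwent puromycin selection, and their RNA was taken 48 hrs after plating. NT denotes the non-targeting control of each modality. The #3 sequences target transmembrane NRP1 only and differ between siRNA and shRNA, whereas #5 is 1 sequence that targets transmembrane and soluble NRP1. The 52 samples formed 18 groups of cell line and treatment with 3 samples each, except 2 groups of 2, which were SUM159PT with siNRP1#5 (replicates 2 and 3) and HS578T with shNRP1#3 (replicates 1 and 2). Replicates of the shRNA groups were consecutive passages of transduced cells, so they do not measure the spread between transductions. The p-values rest on a spread that the siRNA and shRNA groups of a fit share.

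Guidance molecules were first described as cues that steer growing axons, and they also act on blood vessels and on epithelial and tumour cells. Slits are secreted ligands of Robo receptors, and netrins are secreted, laminin-related ligands, some of which act through UNC5 receptors. Ephrins are bound to the cell surface, the A class by a lipid anchor and the B class by a transmembrane domain, and they bind Eph receptor tyrosine kinases on neighbouring cells. Binding can signal into both cells. NRP1 is itself a co-receptor of guidance molecules, the class 3 semaphorins, and of VEGF.

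The depth of the samples, as the sum of expected counts over genes, ran from 25310443 to 72003442 with a median of 44804505. NRP1 fell in 11 of 12 knockdown comparisons, with log2 fold changes between -4.88 and -0.70, and HS578T shNRP1#3 gave -1.59 without passing the test. Of the genes that claudin-low cells lack, CDH1 was at 1.55 CPM (counts scaled to library size, TMM-normalised) or less in every NT control, but CLDN4 was at 129 to 182 CPM in MDA-MB-231. All 4 such genes (CLDN3, CLDN4, CLDN7 and CDH1) were lower in SUM159PT and HS578T than in MDA-MB-231 (adjusted p under 0.05 each in edgeR). Their median log2 differences were -6.54 and -6.20. Marker genes of a cell line were at 20 CPM or more in its NT controls and at 0.5 CPM or less in those of another. In some libraries of the other cell line these genes were raised, and a share of foreign RNA was estimated from their median. Whether the genes rose in the cells themselves was not tested, so foreign RNA is an estimate throughout. HS578T siNRP1#5 held an estimated 24.8, 16.6 and 13.2% of MDA-MB-231 RNA in replicates 1 to 3, and replicate 2 also held 5.45% of SUM159PT RNA. The estimated share of MDA-MB-231 RNA was 2.47 to 7.42% in HS578T siNRP1#3 and 0.647 to 2.18% in HS578T siNT. MDA-MB-231 shNRP1#3 replicate 3 held an estimated 1.86% of SUM159PT and 1.48% of HS578T RNA. The amount that this RNA would bring is given beside the results of HS578T siNRP1#5 and MDA-MB-231 shNRP1#3 that passed against the NT control.

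The first question was which of these genes the 3 cell lines expressed. Levels of different genes are compared as TPM, which accounts for transcript length, over the 6 NT controls of a cell line (mean ± SD, n = 6). The B-class Eph receptor EPHB4, on GRCh38 at chr7:100802565-100827523 on the minus strand, was the most abundant member in all 3 cell lines. It was at 81.3 ± 13.2 TPM in SUM159PT, 46.0 ± 9.79 TPM in MDA-MB-231 and 64.1 ± 15.9 TPM in HS578T, and its lowest sample lay above the highest sample of every other member in that cell line. EPHB2, the other B-class receptor (chr1:22710839-22921500, plus strand), was at 17.8 ± 7.65, 20.8 ± 4.34 and 19.7 ± 2.90 TPM in the same order of cell lines.

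Among the ligands of these receptors, EFNB1 (chrX:68829021-68842160, plus strand) was at 18 ± 3.54 TPM in SUM159PT and 15.6 ± 5.17 TPM in HS578T, but at 3.20 ± 0.494 TPM in MDA-MB-231. EFNB2 (chr13:106489745-106535662, minus strand), the ligand with which EPHB4 separates arteries from veins in development, had another order, with 9.07 ± 4.24 TPM in MDA-MB-231, 4.66 ± 2.61 TPM in SUM159PT and 1.83 ± 1.90 TPM in HS578T. The A-class ligand EFNA1 (chr1:155127876-155134899, plus strand) was at 28.1 ± 10.9 TPM in SUM159PT, 29.0 ± 3.47 TPM in MDA-MB-231 and 11.1 ± 6.39 TPM in HS578T. EFNA1 was thus next in order to EPHB4 in SUM159PT and MDA-MB-231.

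The Slit ligands divided the cell lines. SLIT2 (chr4:20251905-20620561, plus strand) was at 8.26 ± 5.02 TPM in SUM159PT, 1.61 ± 0.906 TPM in MDA-MB-231 and 0.397 ± 0.128 TPM in HS578T. SLIT3 (chr5:168661740-169301139, minus strand) was at 8.65 ± 7.05 TPM in HS578T, and at 0.025 ± 0.0432 TPM in SUM159PT and 0.0183 ± 0.024 TPM in MDA-MB-231. Over all groups, SLIT2 held 95.2 to 100% of the summed SLIT2 and SLIT3 TPM in SUM159PT samples and 88.2 to 100% in MDA-MB-231 samples, but 1.67 to 67.3% in HS578T samples. The receptor ROBO1 (chr3:78597239-79767998, minus strand) was at 14.1 ± 3.93 TPM in SUM159PT, 7.41 ± 1.92 TPM in HS578T and 1.55 ± 0.660 TPM in MDA-MB-231.

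The netrin ligand and receptor were, like ROBO1, lowest in MDA-MB-231, and none of the 3 was called between HS578T and SUM159PT. NTN4 (chr12:95657807-95791189, minus strand), a netrin of basement membranes, was at 14.1 ± 4.38 TPM in SUM159PT, 12.2 ± 2.29 TPM in HS578T and 0.625 ± 0.264 TPM in MDA-MB-231. UNC5B (chr10:71212570-71302864, plus strand), a repulsive netrin receptor, was at 16.1 ± 12.0, 6.50 ± 4.15 and 0.137 ± 0.0403 TPM in that order. In SUM159PT the sample ranges of all neighbours from EFNA1 down to EFNB2 overlapped, and in HS578T those of all neighbours below EPHB4 did. In MDA-MB-231 the ranges left gaps between EPHB2 and EFNB2, EFNB2 and EFNB1, NTN4 and UNC5B, and UNC5B and SLIT3.

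**Figure D1:**
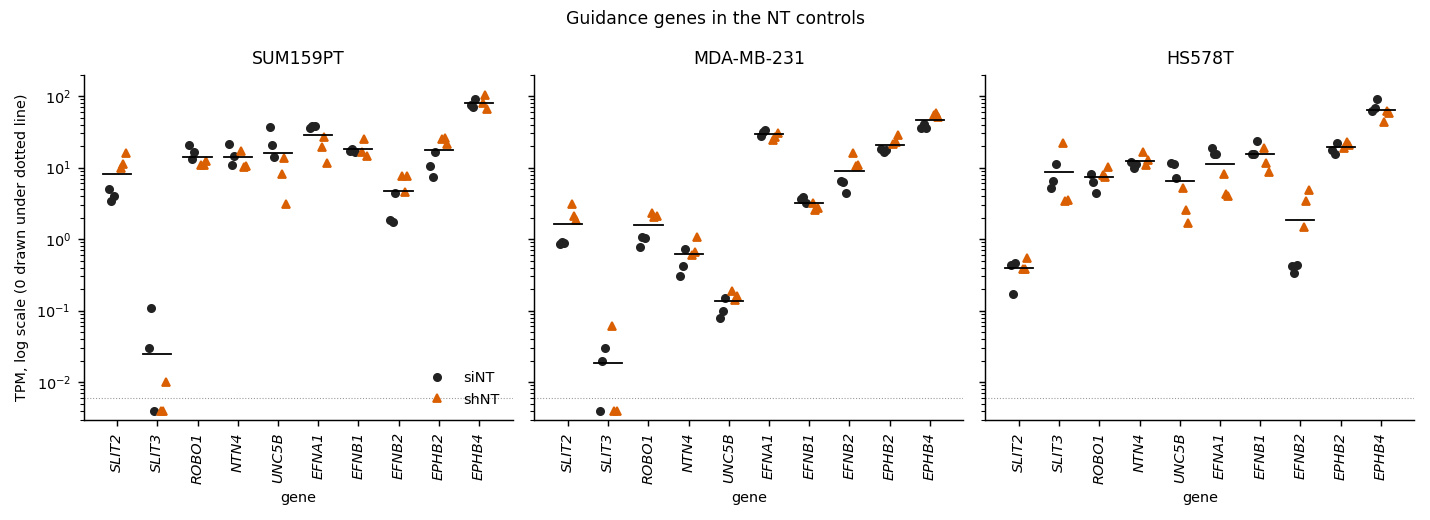
TPM (log scale) of the 10 guidance genes in each NT control of the 3 cell lines, with circles for siNT, triangles for shNT and a line at the mean of 6 samples. EPHB4 sits highest in every cell line, and SLIT3 is near 0 in SUM159PT and MDA-MB-231 but at a mean of 8.65 TPM in HS578T.

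Differences between cell lines were tested with edgeR's quasi-likelihood test on the counts of all 52 samples, as the mean of both NT groups of a cell line against that of another. A gene is called where its Benjamini-Hochberg adjusted p over all genes tested was under 0.05. Of the members, 7 were called between SUM159PT and MDA-MB-231 (59.4% of all 23416 genes tested were), 10 between HS578T and MDA-MB-231 (70.2%) and 5 between HS578T and SUM159PT (63.5%), so that most genes of any kind differed. Against MDA-MB-231, UNC5B was higher by a log2 difference of 7.06 ± 0.61 (SE) in SUM159PT and 6.15 ± 0.59 in HS578T, with adjusted p of 1.11e-12 and 1.12e-11. NTN4 was higher by 5.10 ± 0.26 in SUM159PT and 5.24 ± 0.27 in HS578T (adjusted p = 3.79e-20 and 1.84e-20). ROBO1 was higher by 3.35 ± 0.24 and 2.98 ± 0.24, and EFNB1 by 2.88 ± 0.24 and 3.06 ± 0.24, in the same order of cell lines. SLIT2 was higher in SUM159PT than in MDA-MB-231 by 2.74 ± 0.26 (adjusted p = 4.10e-12) and lower in HS578T than in SUM159PT, with a log2 difference of -4.12 ± 0.28 (adjusted p = 3.06e-16). SLIT3 was called in both comparisons of HS578T, where NT controls held 453 to 5845 counts, while the NT controls of the other cell lines held at most 13 counts. EFNB2 was lower in SUM159PT and HS578T than in MDA-MB-231, with log2 differences of -0.64 ± 0.27 (adjusted p = 0.0349, lost without replicate 1 or 2 of every group with values up to 0.352) and -2.07 ± 0.28 (adjusted p = 2.05e-08). For EPHB2, the difference between HS578T and MDA-MB-231 was 0.62 ± 0.18 on CPM (adjusted p = 0.00237), but -0.068 on log2(TPM + 0.1), so its direction depended on the scaling. On that scale the median of all genes itself lay between -0.54 and 0.18 over all comparisons made. The EFNA1 call between HS578T and MDA-MB-231 (-0.82) was lost without replicate 2 or 3 of every group. Its log2 difference lay between -1.17 and -0.61 with a replicate number left out. The EPHB2 call between HS578T and SUM159PT (0.49) was lost without replicate 1 of every group, with log2 differences between 0.46 and 0.51. EPHB4 did not pass between HS578T and SUM159PT, with a difference of 0.01 and a 95% interval from -0.27 to 0.29.

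Knockdown was then compared with the NT control of the same modality in a fit of each cell line, over 20067 genes in SUM159PT, 19661 in HS578T and 18800 in MDA-MB-231. SLIT3 was tested in HS578T only, since its counts were too low elsewhere, so 9 members were tested in SUM159PT and MDA-MB-231 and 10 in HS578T. In bulk RNA, a lower level in each cell and a smaller share of cells that express the gene cannot be told apart. In SUM159PT, 2 members passed with siNRP1#3 (8.66% of all genes did), 1 with siNRP1#5 (17.9%), 1 with shNRP1#3 (1.4%) and 1 with shNRP1#5 (5.94%), and all were lower. In MDA-MB-231, 4 members were lower with siNRP1#3 (25.7% of all genes passed), 2 were higher and 1 lower with siNRP1#5 (29.4%), 2 were higher with shNRP1#3 (3.65%), and 3 were higher and 2 lower with shNRP1#5 (20.7%). In HS578T, none passed with siNRP1#3 (4.65%), 2 were higher with siNRP1#5 (18.7%), none passed with shNRP1#3 (0.0356%) and 1 was higher with shNRP1#5 (0.946%). With siNRP1#3 and shNRP1#3 in HS578T, 3 and 4 members had an unadjusted p under 0.05 in edgeR, and DESeq2 called 2 (UNC5B and EFNB1) and 0. The median log2 fold change of the members tested was lowest with SUM159PT siNRP1#3, at -0.97, where the median of all genes was -0.01.

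**Figure D2:**
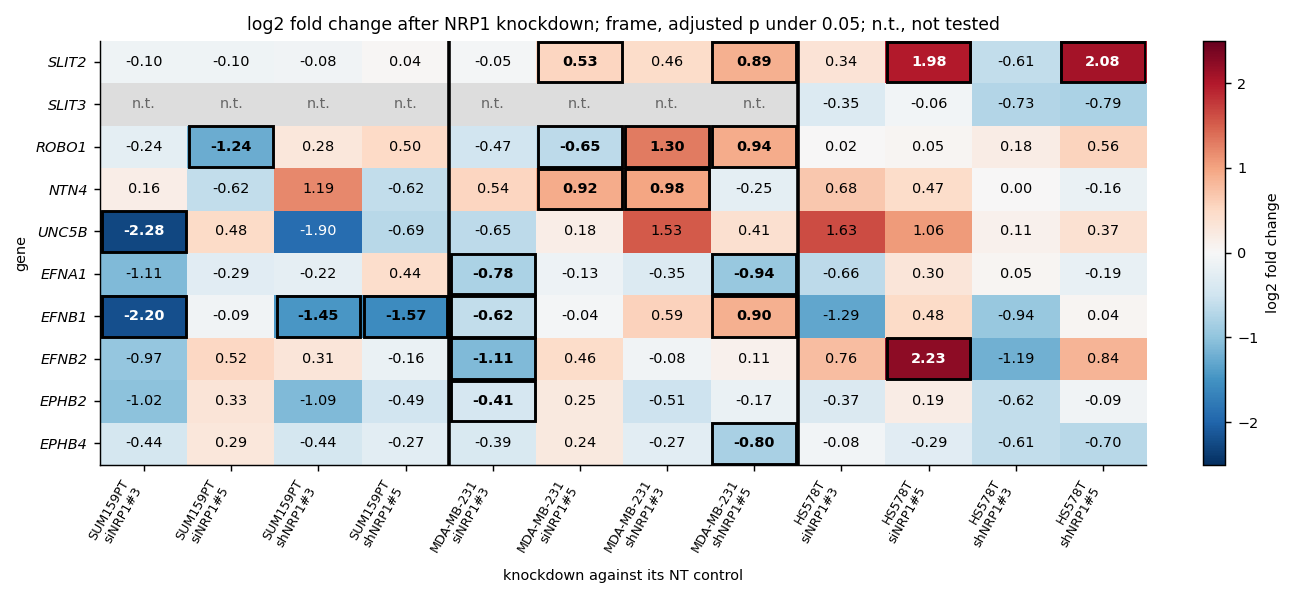
Log2 fold changes of the 10 guidance genes (rows) in the 12 knockdown comparisons (columns), red for higher and blue for lower than the NT control. Framed cells had an adjusted p under 0.05, and n.t. marks genes with too few counts for the test. EFNB1 is framed in blue in 3 of 4 SUM159PT columns, and the largest framed increases are EFNB2 and SLIT2 in HS578T with #5 sequences.

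EFNB1, a transmembrane ligand of EPHB receptors, fell in SUM159PT with siNRP1#3, shNRP1#3 and shNRP1#5, but was not called with siNRP1#5. In siNT it was at 45.5, 58.4 and 43.1 CPM, in siNRP1#3 at 7.87, 13.0 and 10.9 CPM, and in siNRP1#5 at 23.7 and 68.4 CPM. In shNT it was at 42.1, 60.7 and 36.8 CPM, in shNRP1#3 at 15.3, 19.3 and 16.4 CPM, and in shNRP1#5 at 19.3, 12.6 and 14.1 CPM. Every siNRP1#3, shNRP1#3 and shNRP1#5 sample lay below every sample of its NT control, whereas siNRP1#5 spanned the control. The log2 fold changes were -2.20 ± 0.34 with siNRP1#3 (adjusted p = 0.000935), -1.45 ± 0.33 with shNRP1#3 (adjusted p = 0.0342) and -1.57 ± 0.33 with shNRP1#5 (adjusted p = 0.00863). With siNRP1#5 it was -0.09 ± 0.36, although NRP1 fell furthest there (log2 fold change -4.31, against -2.30 to -1.31 in the other knockdowns of the cell line). The siNRP1#3 call was kept without any single sample of the cell line, the shNRP1#5 call was lost without shNRP1#5 replicate 2 (adjusted p = 0.0602), and the shNRP1#3 call was lost without any of 6 of the 17 samples (adjusted p up to 0.176) and on log2(TPM + 0.1) (adjusted p = 0.133).

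In MDA-MB-231, EFNB1 was lower with siNRP1#3 and higher with shNRP1#5. It was at 7.51, 8.58 and 7.01 CPM in siNT, 6.14, 4.20 and 4.43 CPM in siNRP1#3 and 6.78, 7.74 and 7.62 CPM in siNRP1#5. In the shRNA groups it was at 6.16, 5.05 and 5.22 CPM in shNT, 7.58, 6.90 and 10.1 CPM in shNRP1#3 and 10.9, 10.2 and 9.35 CPM in shNRP1#5. No siNRP1#3 sample reached the lowest siNT sample, and no shNRP1#5 sample came down to the highest shNT sample. The log2 fold changes were -0.62 ± 0.17 (adjusted p = 0.0136) and 0.90 ± 0.17 (adjusted p = 0.00143), and with shNRP1#3 the value was 0.59 ± 0.17 (adjusted p = 0.0695). The siNRP1#3 call was lost without siNRP1#3 replicate 2 or 3 or siNT replicate 2 (adjusted p up to 0.0706), and the shNRP1#5 call was kept without any single sample. In HS578T, EFNB1 went from 49.8, 58.0 and 86.8 CPM in siNT to 19.3, 21.1 and 38.9 CPM in siNRP1#3, with no overlap but a log2 fold change of -1.29 ± 0.37 that did not pass (adjusted p = 0.0534).

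EFNB2, the other B-class ligand measured, fell with siNRP1#3 in MDA-MB-231 and rose with siNRP1#5 in HS578T. In MDA-MB-231 it was at 16.9, 18.5 and 12.3 CPM in siNT and at 7.60, 7.60 and 6.57 CPM in siNRP1#3, a log2 fold change of -1.11 ± 0.19 (adjusted p = 0.000376) that was kept without any single sample. The siNRP1#5 samples, at 24.0, 22.9 and 17.9 CPM, overlapped siNT, with a log2 fold change of 0.46 ± 0.19 (adjusted p = 0.0716, or 0.0457 in a fit blocked by replicate number, which paired these samples). In HS578T, EFNB2 was at 1.85, 1.72 and 2.43 CPM in siNT, 2.80, 3.46 and 3.94 CPM in siNRP1#3 and 9.89, 8.53 and 9.87 CPM in siNRP1#5. All siNRP1#5 samples lay above all siNT samples, and the log2 fold change was 2.23 ± 0.48 (adjusted p = 0.00479). EFNB2 was more abundant in MDA-MB-231, and the RNA of other cell lines in HS578T siNRP1#5 would bring 5.36, 4.33 and 2.86 CPM at the level of their siNRP1#5 groups, or 3.94, 3.17 and 2.10 CPM at that of their siNT groups. At the level of their shNT groups it would bring 7.90, 6.49 and 4.22 CPM, which is most of the EFNB2 in replicates 1 and 2, and which level applies was not tested. After these amounts were subtracted, the log2 fold change was 1.88 ± 0.49 (adjusted p = 0.0213) at the siNRP1#5 level and 2.17 ± 0.49 (adjusted p = 0.00949) at the siNT level. On log2(TPM + 1), where low genes count for less, it was 1.09 and did not pass (adjusted p = 0.0815).

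SLIT2 rose with #5 sequences in HS578T and MDA-MB-231. In HS578T it was at 2.08, 1.34 and 2.05 CPM in siNT, 1.990, 1.962 and 2.953 CPM in siNRP1#3 and 4.32, 8.09 and 9.32 CPM in siNRP1#5. In the shRNA groups of HS578T it was at 2.16, 3.02 and 3.72 CPM in shNT, 1.10 and 2.86 CPM in shNRP1#3 and 7.89, 14.2 and 15.9 CPM in shNRP1#5. All samples with a #5 sequence lay above all samples of their NT control and of the #3 group. The log2 fold changes were 1.98 ± 0.41 with siNRP1#5 (adjusted p = 0.00369) and 2.08 ± 0.40 with shNRP1#5 (adjusted p = 0.0243). Foreign RNA would bring 1.39, 2.18 and 0.739 CPM to the siNRP1#5 samples at the level of the same treatment, and after its subtraction the log2 fold change was 2.04 ± 0.44 (adjusted p = 0.00766). At the level of the shNT groups it would bring 2.31, 5.15 and 1.235 CPM, which is most of the SLIT2 in replicates 1 and 2. Which level applies was not tested. In HS578T shNRP1#5, a foreign cell line made up at most an estimated 0.238% of any library. There the call was lost without shNRP1#5 replicate 2 or 3 or shNT replicate 1 or 2 (adjusted p up to 0.129). On log2(TPM + 0.1) neither call was kept, with values of 1.13 (adjusted p = 0.110) for siNRP1#5 and 1.86 (adjusted p = 0.0939) for shNRP1#5.

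**Figure D3:**
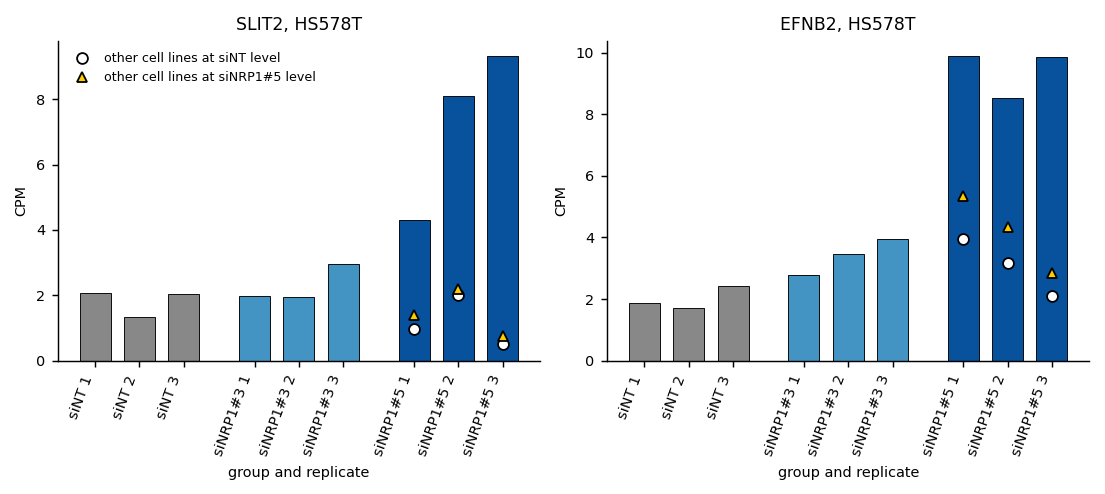
SLIT2 and EFNB2 CPM in each HS578T siRNA sample (bars), with the amount that RNA of other cell lines would bring to siNRP1#5 at the level of their siNT (circles) and siNRP1#5 (triangles) groups. All 3 siNRP1#5 bars exceed the siNT bars for both genes, and the triangles reach 5.36 CPM for EFNB2 and 2.18 CPM for SLIT2.

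In MDA-MB-231, SLIT2 was at 4.08, 4.21 and 3.48 CPM in siNT, 3.70, 3.76 and 3.69 CPM in siNRP1#3 and 7.15, 4.57 and 5.05 CPM in siNRP1#5. In the shRNA groups it was at 12.1, 8.21 and 7.67 CPM in shNT, 14.0, 10.7 and 13.8 CPM in shNRP1#3 and 16.7, 19.4 and 15.6 CPM in shNRP1#5. Both #5 groups lay above their NT control without overlap. The log2 fold changes were 0.53 ± 0.20 with siNRP1#5 (adjusted p = 0.0499), lost without any of 14 of the 18 samples (adjusted p up to 0.216), on log2(TPM + 0.1) (0.211) and after subtraction of foreign RNA (0.0507 and 0.0509 at the siNT and the same-treatment level), and 0.89 ± 0.19 with shNRP1#5 (adjusted p = 0.00301), kept without any single sample. SUM159PT, where SLIT2 was most abundant, gave log2 fold changes between -0.10 and 0.04, with 95% intervals that reached from -0.96 to 0.80.

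SLIT3 could be compared in HS578T only, and its samples were spread widely. It was at 27.9, 40.6 and 65.7 CPM in siNT and at 123, 17.3 and 16.8 CPM in shNT, so that replicate 1 of shNT held several times the level of the other passages. Replicate 1 was also the highest in shNRP1#3, at 56.1 against 6.61 CPM, and in shNRP1#5, at 72.9 against 11.6 and 4.84 CPM. The 4 log2 fold changes lay between -0.79 and -0.06, with standard errors of 0.92 to 1.05, and none passed, with or without a block for the replicate number. In both shRNA knockdowns each sample lay below the shNT sample of its own number. In the other cell lines SLIT3 had at most 13 counts, except MDA-MB-231 shNRP1#3 replicate 3 with 40 counts (0.703 CPM), to which RNA of other cell lines would bring 0.464 CPM at the level of the same treatment.

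ROBO1, a receptor of SLIT2, moved in opposite directions with the modalities in MDA-MB-231. With siRNA it was at 2.84, 2.81 and 2.35 CPM in siNT, 1.34, 1.90 and 2.49 CPM in siNRP1#3 and 1.69, 1.27 and 2.07 CPM in siNRP1#5. With shRNA it was at 6.87, 5.83 and 6.92 CPM in shNT, 19.5, 12.9 and 15.6 CPM in shNRP1#3 and 9.73, 14.6 and 13.0 CPM in shNRP1#5. The siNRP1#5 samples lay below siNT, and all shRNA knockdown samples lay above shNT. The log2 fold changes were 1.3 ± 0.22 with shNRP1#3 (adjusted p = 0.00171) and 0.94 ± 0.22 with shNRP1#5 (adjusted p = 0.00514), both kept without any single sample. Foreign RNA would bring 1.48 of the 15.6 CPM in shNRP1#3 replicate 3 at the level of the same treatment, and the log2 fold change after its subtraction was 1.27 ± 0.22 (adjusted p = 0.00268). With siNRP1#5 the value was -0.65 ± 0.24 (adjusted p = 0.0472), a call lost without any of 11 of the 18 samples (adjusted p up to 0.183), with RLE scaling (0.0604) and after subtraction of foreign RNA (0.0590).

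In SUM159PT, ROBO1 fell with siNRP1#5. It was at 68.9, 36.9 and 44.5 CPM in siNT, 41.4, 47.4 and 37.4 CPM in siNRP1#3 and 16.8 and 25.2 CPM in siNRP1#5, where both samples lay below all others of the siRNA groups. The log2 fold change was -1.24 ± 0.40 (adjusted p = 0.0405), and the call was lost without any of 7 of the 17 samples (adjusted p up to 0.198). It was also lost in a fit blocked by replicate number. In HS578T, ROBO1 had log2 fold changes between 0.02 and 0.56, none of which passed.

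NTN4 rose in MDA-MB-231 from a low level. It was at 0.521, 0.717 and 1.14 CPM in siNT and 1.87, 1.32 and 1.27 CPM in siNRP1#5, a log2 fold change of 0.92 ± 0.28 (adjusted p = 0.0186). In shNT it was at 1.03, 1.07 and 1.44 CPM and in shNRP1#3 at 1.87, 1.85 and 3.23 CPM, a log2 fold change of 0.98 ± 0.27 (adjusted p = 0.0458). Neither pair of groups overlapped, but on log2(TPM + 0.1) neither call was kept (adjusted p = 0.243 and 0.226). The siNRP1#5 call was lost without siNRP1#5 replicate 1 or siNT replicate 1 or 2 (adjusted p up to 0.0949). The shNRP1#3 call was lost without any of 12 of the 18 samples (adjusted p up to 0.284) and after subtraction of the RNA of other cell lines, of which replicate 3 would receive 1.75 of its 3.23 CPM at the level of the same treatment and 1.08 CPM at that of shNT (log2 fold changes of 0.45 and 0.72, adjusted p = 0.367 and 0.105). NTN4 passed in no knockdown of SUM159PT or HS578T, where its log2 fold changes ranged from -0.62 to 1.19.

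UNC5B varied widely between replicates. In SUM159PT it was at 202, 131 and 72.8 CPM in siNT, 21.2, 42.9 and 19.2 CPM in siNRP1#3 and 303 and 69.9 CPM in siNRP1#5. All siNRP1#3 samples lay below siNT, and the log2 fold change was -2.28 ± 0.67 (adjusted p = 0.0467). That call was lost without any of 8 of the 17 samples (adjusted p up to 0.167) and on log2(TPM + 0.1) (0.0507). In HS578T it was at 74.9, 82.9 and 53.6 CPM in siNT, 338, 235 and 79.5 CPM in siNRP1#3 and 205, 151 and 86.1 CPM in siNRP1#5, with a log2 fold change of 1.63 ± 0.58 with siNRP1#3 that did not pass (adjusted p = 0.122). In the shRNA groups of SUM159PT it spanned 16.1 to 68.1 CPM in shNT and 8.55 to 16.1 CPM in shNRP1#3 (log2 fold change -1.90 ± 0.67, adjusted p = 0.219).

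EFNA1, an A-class ligand, fell in MDA-MB-231. It was at 23.2, 29.7 and 31.4 CPM in siNT and 15.6, 14.3 and 18.3 CPM in siNRP1#3, with no overlap and a log2 fold change of -0.78 ± 0.26 (adjusted p = 0.0338). In shNT it was at 19.9, 22.0 and 24.5 CPM and in shNRP1#5 at 15.1, 9.87 and 9.35 CPM, again with no overlap and a log2 fold change of -0.94 ± 0.26 (adjusted p = 0.0162). The former call was lost without siNRP1#3 replicate 1 or 2 or siNT replicate 2 or 3 (adjusted p up to 0.113), and the latter without shNRP1#5 replicate 2 or 3 or shNT replicate 3 (adjusted p up to 0.0825). In SUM159PT, EFNA1 was at 39.3, 51.8 and 40.4 CPM in siNT and 17.3, 16.7 and 26.9 CPM in siNRP1#3, and the log2 fold change of -1.11 ± 0.36 did not pass (adjusted p = 0.0665, or 0.0439 in such a blocked fit, since the numbers paired these samples).

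Of the B-class receptors, EPHB4 and EPHB2 each passed in 1 knockdown, both in MDA-MB-231. EPHB4 was at 104, 103 and 91.9 CPM in shNT and 64.2, 53.9 and 52.5 CPM in shNRP1#5, far from overlap, with a log2 fold change of -0.80 ± 0.15 (adjusted p = 0.00093) that was kept without any single sample. EPHB2 was at 47.2, 47.3 and 52.9 CPM in siNT and 37.2, 30.3 and 41.4 CPM in siNRP1#3, with a log2 fold change of -0.41 ± 0.14 (adjusted p = 0.0417) that was lost without any of 8 of the 18 samples (adjusted p up to 0.182), with RLE scaling (0.0521) and on log2(TPM + 0.1) (0.217). In SUM159PT, EPHB2 was at 37.7, 38.2 and 56.3 CPM in siNT and 18.2, 21.6 and 25.2 CPM in siNRP1#3. These groups did not overlap, but the log2 fold change of -1.02 ± 0.31 did not pass (adjusted p = 0.0504). It did in a fit blocked by replicate number, which paired these samples (adjusted p = 0.0214). In shNT it was at 77.2, 74.1 and 65.1 CPM and in shNRP1#3 at 39.1, 28.8 and 32.9 CPM, where the log2 fold change of -1.09 ± 0.31 did not pass either (adjusted p = 0.101, and 0.0361 with the block). EPHB4 in HS578T was at 151, 198 and 168 CPM in shNT and at 102 to 127 CPM in both shRNA knockdowns, without overlap and without passing (log2 fold changes -0.61 ± 0.26 and -0.70 ± 0.23).

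**Figure D4:**
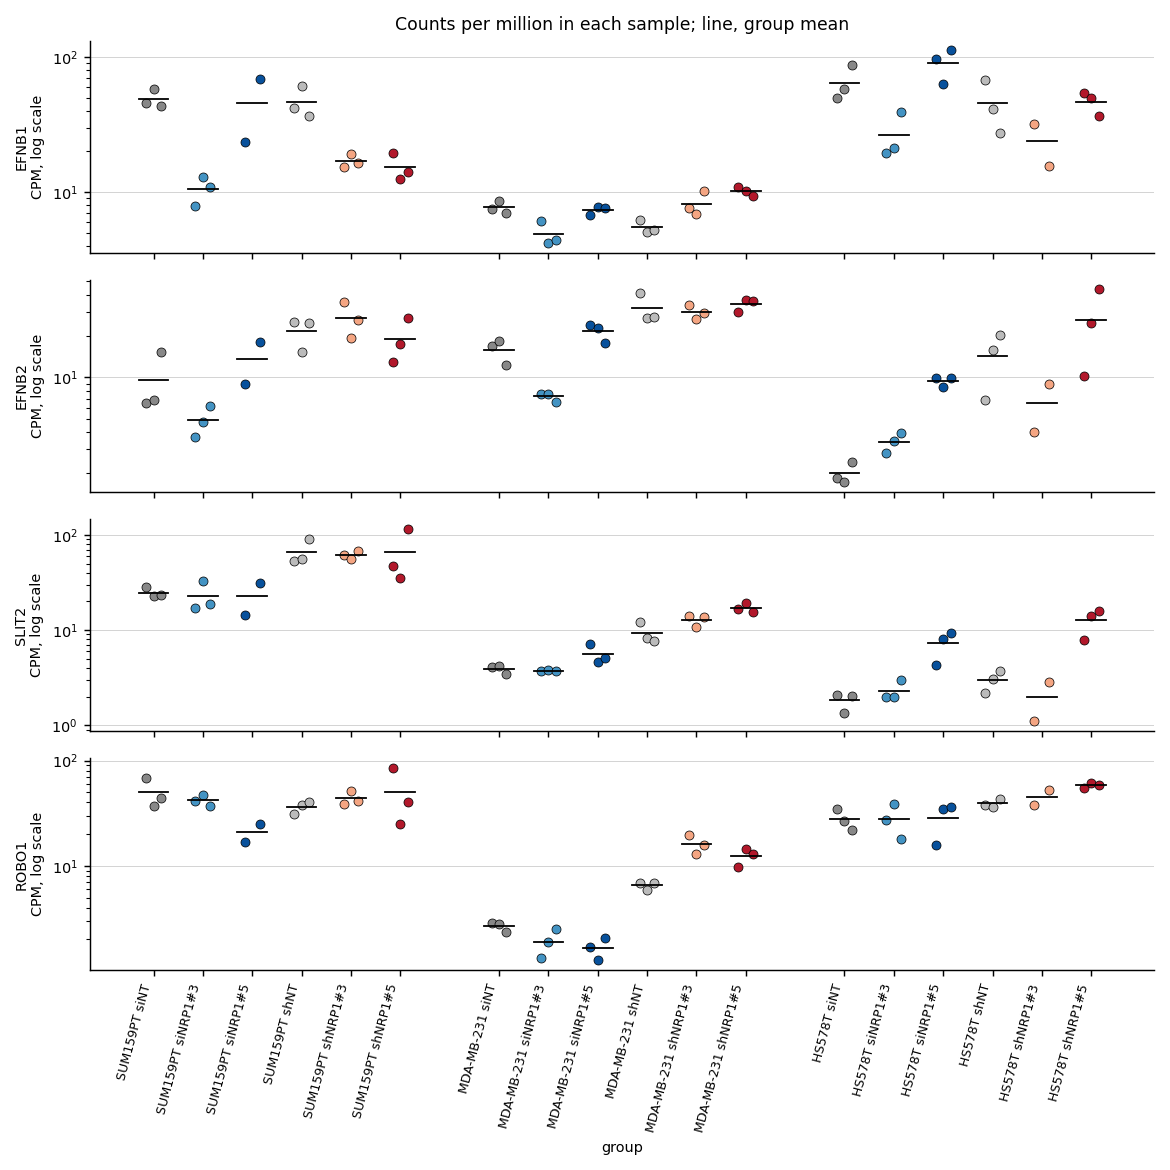
CPM (log scale) of EFNB1, EFNB2, SLIT2 and ROBO1 in each of the 52 samples, by group, with a line at the group mean. EFNB1 is below its controls in 3 of 4 SUM159PT knockdown groups, and SLIT2 and EFNB2 are above siNT in HS578T siNRP1#5.

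Whether a knockdown had the same effect in the 3 cell lines was tested in the fit of all 52 samples. With siNRP1#3, 1 member differed (3.42% of all genes did), which was UNC5B (adjusted p = 0.0312). With siNRP1#5, SLIT2 (adjusted p = 0.0111) and EFNB2 (0.0261) differed (18.2% of all genes), and the EFNB2 call was lost after subtraction of foreign RNA (0.0514 at the siNT level and 0.105 at the siNRP1#5 level). With shNRP1#3, EFNB1 differed (adjusted p = 0.0278, against 0.747% of all genes), a call lost after subtraction of foreign RNA (0.124 at the shNT level and 0.0791 at that of the same treatment). With shNRP1#5, EFNB1 (adjusted p = 0.00152) and SLIT2 (0.0252) differed (3.81% of all genes). On log2(TPM + 0.1) the SLIT2 calls with siNRP1#5 and shNRP1#5 were lost (0.0894 and 0.0744). For EFNB1 with shNRP1#5, SUM159PT gave -1.57, MDA-MB-231 0.90 and HS578T 0.04. With replicate 2 left out, SUM159PT siNRP1#5 and HS578T shNRP1#3 keep 1 sample each, and with replicate 1 left out the latter does. Of these 6 calls, 3 were left without replicate 1 of every group and none without replicate 2.

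The #5 sequence was used as siRNA and as shRNA, which allowed the modalities to be compared. NRP1 knockdown differed in depth between them, with log2 fold changes of -4.88 with siNRP1#5 and -1.05 with shNRP1#5 in MDA-MB-231. Modality and depth of knockdown thus cannot be told apart here. In MDA-MB-231, the effects of siNRP1#5 and shNRP1#5 differed for 4 members (23.7% of all genes). The siRNA effect was lower than the shRNA effect by a log2 difference of -1.59 ± 0.32 for ROBO1 (adjusted p = 0.00148) and -0.94 ± 0.24 for EFNB1 (adjusted p = 0.00886), and higher by 1.05 ± 0.21 for EPHB4 (adjusted p = 0.00115) and 1.17 ± 0.39 for NTN4 (adjusted p = 0.0359). The NTN4 call was lost without any of 7 of the 18 samples (adjusted p up to 0.105) and on log2(TPM + 0.1) (0.190), and the other 3 were kept without any single sample. No member passed in SUM159PT (2.51% of all genes) or HS578T (0.854%), where 2 and 1 members had an unadjusted p under 0.05 in edgeR and DESeq2 called 2 (ROBO1 and EFNB1) and 0.

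The NT controls differed between the modalities as well, with delivery, selection and time of harvest changed at once, so their parts cannot be told apart. There 2 members differed in SUM159PT (14.4% of all genes), 4 in MDA-MB-231 (20.6%) and 2 in HS578T (17.9%). SLIT2 was higher in shNT than in siNT by a log2 difference of 1.39 ± 0.40 in SUM159PT (adjusted p = 0.0304) and 1.22 ± 0.20 in MDA-MB-231 (adjusted p = 0.000278). EFNB2 was higher in shNT by 2.88 ± 0.49 in HS578T (adjusted p = 0.00156) and 0.97 ± 0.19 in MDA-MB-231 (adjusted p = 0.00127), and gave 1.17 ± 0.39 in SUM159PT (adjusted p = 0.0511). In HS578T this was a shift from 1.85, 1.72 and 2.43 CPM in siNT to 6.88, 15.8 and 20.5 CPM in shNT, where the groups did not overlap. EFNA1 was lower in shNT by a log2 difference of -1.16 ± 0.36 in SUM159PT (adjusted p = 0.0413) and -1.56 ± 0.45 in HS578T (adjusted p = 0.0258). In MDA-MB-231, ROBO1 was higher in shNT by 1.26 ± 0.23 (adjusted p = 0.000708) and EFNB1 lower, at -0.52 ± 0.17 (adjusted p = 0.0387). With 1 sample left out, SLIT2 in SUM159PT could be lost (without shNT replicate 1 or 3 or any siNT replicate, adjusted p up to 0.142), as could EFNA1 in HS578T (without shNT replicate 2 or 3 or siNT replicate 1 or 2, up to 0.114), EFNA1 in SUM159PT (6 of 17 samples, up to 0.176) and EFNB1 (6 of 18 samples, up to 0.138), whereas the other 4 calls were kept.

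The knockdown sequences were compared directly, which changes at once the NRP1 forms targeted, the RNAi sequence and the depth of knockdown, so these cannot be told apart. With siRNA, NRP1 was lower in #5 than in #3 in each cell line (log2 differences of -2.22, -4.18 and -1.46 in SUM159PT, MDA-MB-231 and HS578T), but with shRNA it was lower by a called difference in SUM159PT only (-0.99), at -0.50 in HS578T and 0.43 in MDA-MB-231. With siRNA, 5 of 9 members were called in SUM159PT, 5 of 9 in MDA-MB-231 and 3 of 10 in HS578T, where 29.7, 39 and 18.1% of all genes were called. All 13 calls were higher in siNRP1#5 than in siNRP1#3, while 16, 20 and 9.21% of all genes were called higher. The members were not chosen independently of these data, so whether they exceed the share of all genes was not tested. The median log2 difference of the members was 0.82 in SUM159PT, 0.42 in HS578T and 0.63 in MDA-MB-231, and that of all genes was 0.02, 0.03 and 0.01. EFNB2 passed in all 3 cell lines, with log2 differences of 1.48 ± 0.42 in SUM159PT, 1.47 ± 0.46 in HS578T and 1.57 ± 0.19 in MDA-MB-231 (adjusted p = 0.0156, 0.0376 and 3.87e-06). EFNB1 passed in all 3 as well, with 2.12 ± 0.36, 1.78 ± 0.37 and 0.58 ± 0.18 in that order (adjusted p = 0.000561, 0.00498 and 0.0133).

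Both B-class receptors passed in 2 cell lines. EPHB2 was higher with siNRP1#5 by 1.35 ± 0.34 in SUM159PT (adjusted p = 0.00759) and 0.66 ± 0.15 in MDA-MB-231 (adjusted p = 0.00129), and EPHB4 by 0.73 ± 0.24 (adjusted p = 0.0331) and 0.63 ± 0.15 (adjusted p = 0.00205). UNC5B passed in SUM159PT, at 2.76 ± 0.72 (adjusted p = 0.0105). SLIT2 passed in MDA-MB-231, at 0.59 ± 0.20 (adjusted p = 0.0253), and in HS578T, at 1.65 ± 0.40 (adjusted p = 0.0111). The former was lost without siNRP1#5 replicate 1 or any siNRP1#3 replicate (adjusted p up to 0.136) and the latter without siNRP1#3 replicate 1 (0.0579). In SUM159PT siNRP1#5 the 2 samples were far apart, with EPHB2 at 30.5 and 79.9 CPM, EFNB2 at 8.96 and 18.1 CPM and EPHB4 at 179 and 337 CPM. Without its replicate 3 these 3 calls were lost, and EFNB2 and EPHB4 also without siNRP1#3 replicate 1, and EPHB4 without siNRP1#3 replicate 3 (adjusted p up to 0.290 for EPHB2, 0.205 for EFNB2 and 0.554 for EPHB4). Further, without its replicate 2 the UNC5B call was lost (adjusted p = 0.247), whereas EFNB1 stayed called without any single sample, with a log2 difference between 1.18 and 2.67. Where 1 sample was left in siNRP1#5, it was assumed to vary like the other groups. In MDA-MB-231, EFNB2, EPHB2 and EPHB4 were called without any single sample, and EFNB1 was lost without siNRP1#3 replicate 2 or 3 (adjusted p up to 0.0722). On log2(TPM + 0.1), 9 of the 13 calls were lost, with all 13 differences still above 0, and the 4 kept were EFNB1 in SUM159PT and HS578T, EFNB2 in MDA-MB-231 and UNC5B in SUM159PT. There the EPHB2 and EPHB4 differences in MDA-MB-231 were 0.34 and 0.37 (adjusted p = 0.0747 and 0.0686). In HS578T, EFNB1 was 2.03 ± 0.39 (adjusted p = 0.00324) after subtraction of foreign RNA at the level of the same treatment, which would bring 1.83, 3.74 and 0.977 CPM to siNRP1#5. The EFNB2 call in HS578T was lost without any of the 6 samples compared (adjusted p up to 0.139) and after the same subtraction (1.04, adjusted p = 0.154).

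With shRNA the sequences differed for 1 member in SUM159PT (8.71% of all genes), 2 in MDA-MB-231 (14.2%) and 1 in HS578T (0.544%). NTN4 was lower in shNRP1#5 than in shNRP1#3 by a log2 difference of -1.81 ± 0.34 in SUM159PT (adjusted p = 0.00272) and -1.23 ± 0.27 in MDA-MB-231 (adjusted p = 0.00583), the latter lost after subtraction of foreign RNA at the level of the same treatment (-0.68, adjusted p = 0.0632). In SUM159PT it was at 96.9, 40.9 and 52.4 CPM in shNRP1#3 and 12.7, 21.5 and 18.9 CPM in shNRP1#5. These groups did not overlap, and shNT, at 37.5, 21.4 and 24.2 CPM, lay below shNRP1#3 and just met shNRP1#5. EPHB4 was lower in shNRP1#5 in MDA-MB-231, at -0.54 ± 0.15 (adjusted p = 0.0205), a direction opposite to that with siRNA, and lost without shNRP1#3 replicate 1 or 2 or shNRP1#5 replicate 2 or 3 (adjusted p up to 0.0951). SLIT2 was higher in shNRP1#5 in HS578T, at 2.68 ± 0.48 (adjusted p = 0.0186), and this call was lost without shNRP1#3 replicate 1 or shNRP1#5 replicate 2 (adjusted p up to 0.314). EFNB1, EFNB2 and EPHB2 passed in none of the 3 shRNA comparisons, although EFNB2 in HS578T gave 2.03 ± 0.54.

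**Figure D5:**
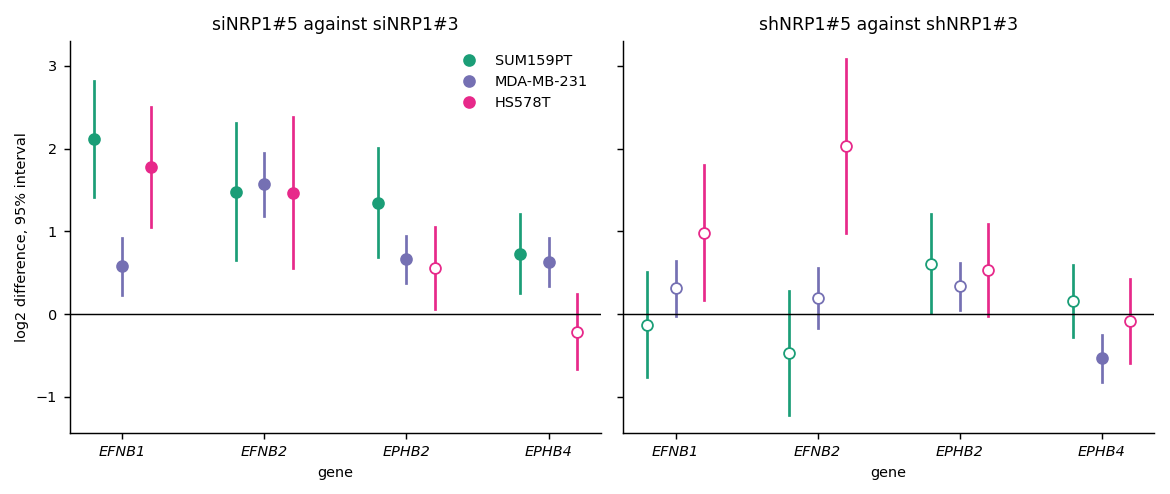
Log2 difference of sequence #5 against #3 for the B-class ligands and receptors in the 3 cell lines, siRNA on the left and shRNA on the right, with 95% intervals and filled points for an adjusted p under 0.05. With siRNA 10 of 12 points are filled and above 0, and with shRNA the only filled point, EPHB4 in MDA-MB-231, is below 0.

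The 5 members that were higher in siNRP1#5 than in siNRP1#3 of MDA-MB-231 were SLIT2, EFNB1, EFNB2, EPHB2 and EPHB4. The 250 bases before the annotated gene start of each are shown to let their promoters be compared. For EFNB2 this start need not be the main one. EFNB2-201, with 61.9% of EFNB2 in the MDA-MB-231 NT controls, starts inside the gene at chr13:106516447, and the bases before that start are not shown. They are from RefSeq on GRCh38.p14, 5′ to 3′ on the strand of the gene. Capitals mark CACCTG, the E-box letters that ZEB1 and Snail bind, and TATANA, each on either strand.
SLIT2 (chr4:20251655-20251904, plus strand): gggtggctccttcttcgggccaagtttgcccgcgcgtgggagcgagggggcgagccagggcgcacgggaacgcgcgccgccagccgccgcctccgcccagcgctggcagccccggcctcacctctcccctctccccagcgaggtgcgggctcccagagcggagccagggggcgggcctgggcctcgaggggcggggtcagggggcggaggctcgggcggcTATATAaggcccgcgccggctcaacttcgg
EFNB1 (chrX:68828771-68829020, plus strand): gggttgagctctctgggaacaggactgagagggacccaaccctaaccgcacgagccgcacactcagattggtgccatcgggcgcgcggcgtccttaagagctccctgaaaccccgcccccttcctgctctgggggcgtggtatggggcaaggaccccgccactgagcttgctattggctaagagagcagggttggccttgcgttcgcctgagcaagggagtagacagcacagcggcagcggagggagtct
EFNB2 (chr13:106535663-106535912, minus strand): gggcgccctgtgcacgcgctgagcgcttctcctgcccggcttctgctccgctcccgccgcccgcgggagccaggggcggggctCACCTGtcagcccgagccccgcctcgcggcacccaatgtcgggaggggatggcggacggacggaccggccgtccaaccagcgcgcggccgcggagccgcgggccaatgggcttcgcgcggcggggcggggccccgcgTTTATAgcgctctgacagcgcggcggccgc
EPHB2 (chr1:22710589-22710838, plus strand): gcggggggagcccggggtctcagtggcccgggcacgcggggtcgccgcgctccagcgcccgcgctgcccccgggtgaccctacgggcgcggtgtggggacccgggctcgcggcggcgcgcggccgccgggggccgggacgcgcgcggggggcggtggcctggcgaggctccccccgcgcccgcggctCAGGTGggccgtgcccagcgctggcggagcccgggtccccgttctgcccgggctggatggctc
EPHB4 (chr7:100827524-100827773, minus strand): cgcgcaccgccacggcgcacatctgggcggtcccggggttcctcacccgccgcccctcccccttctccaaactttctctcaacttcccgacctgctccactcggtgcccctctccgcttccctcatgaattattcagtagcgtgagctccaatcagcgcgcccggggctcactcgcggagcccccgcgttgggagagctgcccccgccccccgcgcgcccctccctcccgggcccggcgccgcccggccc

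CACCTG was present once in the EFNB2 and once in the EPHB2 promoter and in none of the other 3, and 17.5% of 35116 promoters of this length hold it. TATANA was present once in SLIT2 and once in EFNB2, against 17.7% of all promoters. GGGCGG, the letters of the GC box, occurred 5 times in SLIT2, once in EFNB1, 3 times in EFNB2, once in EPHB2 and 4 times in EPHB4, and 42.6% of promoters hold it on either strand. TGANTCA, the AP-1 letters, occurred in none of the 5 and in 6.57% of all promoters. The CpG number was 41 in EPHB2, 40 in EFNB2, 30 in SLIT2, 29 in EPHB4 and 15 in EFNB1, where the median promoter had 11, and 98.3, 97.8, 87.6, 85.9 and 57.1% of promoters had fewer in that order. No motif searched was shared by all 5 except GGGCGG. Of the other members with a promoter entry, EFNA1 held GGGCGG 5 times, and SLIT3, ROBO1 and NTN4 held it 0 times.

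Transcript-level values showed which form of each gene was counted in the NT controls. EFNB1 has 1 annotated transcript. EPHB2-203 held 69.7 to 71.4% and EPHB4-201 49.8 to 52.7% of their genes as means in the 3 cell lines, and EFNA1-202 held 70.8 to 84.1%. For EFNB2, EFNB2-201, which is annotated without a coding sequence, held 63.9% ± 9.90 (SD, n = 6) in SUM159PT and 61.9% ± 3.88 in MDA-MB-231, while the coding EFNB2-202 led in HS578T with 53.2% ± 24.7. For ROBO1, ROBO1-203 with 3 exons and no annotated coding sequence held 38.7% ± 14.4 in SUM159PT and 31.2% ± 10.5 in HS578T, and the coding ROBO1-212 led in MDA-MB-231 with 26.0% ± 4.07. A gene-level value of EFNB2 or ROBO1 thus includes reads assigned to transcripts that are annotated without a protein.

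Among 59 other genes of these pathways (Slit and Robo, netrin, ephrin and Eph, and shared adaptors and proteases), 48 were tested in SUM159PT, 47 in HS578T and 44 in MDA-MB-231. The share of all genes called in either direction follows each count. In SUM159PT, 2 were higher and 4 lower with siNRP1#3 (8.66%), 4 and 2 with siNRP1#5 (17.9%), none and 2 with shNRP1#3 (1.4%), and 4 and 2 with shNRP1#5 (5.94%). In MDA-MB-231, 4 were higher and 10 lower with siNRP1#3 (25.7%), 10 and 9 with siNRP1#5 (29.4%), 1 and 3 with shNRP1#3 (3.65%), and none and 8 with shNRP1#5 (20.7%). In HS578T, 1 was higher and 2 lower with siNRP1#3 (4.65%), 3 and 2 with siNRP1#5 (18.7%), and none passed with shNRP1#3 (0.0356%) or shNRP1#5 (0.946%). With siNRP1#5 against siNRP1#3, 7 were higher and 8 lower in SUM159PT (29.7%), 12 and 8 in MDA-MB-231 (39%), and 7 and 2 in HS578T (18.1%).

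Few of these genes changed in the same direction with both sequences of a modality. With shRNA in SUM159PT this was NGEF, which acts downstream of EphA receptors, with log2 fold changes of -1.87 ± 0.26 and -1.21 ± 0.25 (adjusted p = 0.00121 and 0.00884). With siRNA in MDA-MB-231 these were the ligand EFNA3 (0.91 and 1.12), the kinase FYN (0.50 and 0.85), the B-ephrin adaptor GRIP1 (-0.89 and -1.05) and SRGAP2, which binds Robo receptors (-0.32 and -0.63). With shRNA in MDA-MB-231 these were EFNB3 (-1.83 and -1.66), UNC5A (-1.53 and -1.49) and EFNA5 (-0.61 and -0.65). With siRNA in HS578T these were ROBO4 (1.65 ± 0.43 and 3.04 ± 0.45) and NTNG2 (-1.83 ± 0.32 and -2.09 ± 0.33). ROBO4 was at a mean of 1.67 CPM in HS578T siNT, 5.28 CPM in siNRP1#3 and 13.8 CPM in siNRP1#5, but at 99.1 CPM in MDA-MB-231 siNT. The estimated share of MDA-MB-231 RNA would bring 2.45 to 7.36 CPM to siNRP1#3 and 13.1 to 24.6 CPM to siNRP1#5. No gene met this rule with siRNA in SUM159PT or with shRNA in HS578T.

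The genes whose pattern was most like that of 9 members were found by Pearson's r over the 18 group means of log2 CPM, after subtraction of the mean of each cell line. Groups of a cell line share that mean, and r is a description. It was highest for EPHB4 with NOTCH3 (r = 0.94), ROBO1 with MFAP3L (0.927), EFNB2 with SEPTIN11 (0.92), EFNA1 with FBXO36 (0.918) and SLIT2 with CAMSAP2 (0.9). It was 0.88 for UNC5B with RTN4R, 0.87 for EPHB2 with TDP1, 0.847 for EFNB1 with KAZN and 0.731 for NTN4 with MAP7. SLIT3 was not tested in all 3 cell lines and was left out, and no member was the most alike gene of another.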

How the data were processed

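Poly(A) RNA was sequenced by the authors as stranded paired-end libraries, trimmed with Trim Galore 0.6.5, aligned to GRCh38 with STAR 2.7.2b and quantified with RSEM 1.3.3, with FastQC 0.11.9 for quality. The authors deposited an expected count per gene, which need not be whole, with no normalization. The deposited TPM values divide these by transcript length and scale each sample to a constant sum. The deposited isoform percent is the share of a gene assigned to each transcript. TPM depends on all other genes of a sample, and reads shared by near-identical genes are split by RSEM.

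Expected counts were rounded, low genes were removed with filterByExpr, and counts were scaled with TMM and tested with edgeR 4.0.16 (glmQLFit with robust = TRUE, glmQLFTest) in R 4.3.3. The 6 groups of a cell line shared 1 fit, and the 52 samples shared 1 fit with 18 group means for comparisons between cell lines and for an F test of equal knockdown effect in the 3 cell lines. Benjamini-Hochberg adjustment covered all genes tested, with a threshold of 0.05, and intervals are ± 1.96 SE. The labels gave every sample its group, and 0 columns lacked a sample. None of the 50 pairs of libraries within a group agreed within sampling noise. On counts simulated for SUM159PT siNRP1#3 against siNT, with 200 of 19401 genes changed by 1.5 on the log2 scale, 39.5% of these were recovered and 2.47% of calls were false, so a member that did not pass may still differ.

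The members and lists were chosen with earlier results of these data known. All 10 members are named. Other pathway genes are named where they passed in the same direction with both sequences of a modality in a cell line, and the most alike gene is that with the highest Pearson r. The share of a foreign cell line was estimated from marker genes at 20 CPM or more in its NT controls and at 0.5 CPM or less in those of the sample's own cell line. The alternatives were DESeq2 1.42.0, RLE scaling, no filter, a replicate block, log2(TPM + 0.1) and log2(TPM + 1) with limma 3.58.1, a fit of the groups compared only, each sample left out, and subtraction of foreign RNA at the level of its NT controls. Subtraction at the level of the same treatment was added after seeing the data. Equal replicate numbers paired the samples, by the correlation of their deviations from the group means, in SUM159PT siNRP1#3 with siNT (0.159 to 0.332) and shNRP1#3 with shNT (0.111 to 0.389), in MDA-MB-231 siNRP1#5 with siNT (0.248 to 0.338) and in HS578T shNRP1#5 with shNT (0.201 to 0.61). Comparisons with only 2 pairs were not judged. Promoters were taken from RefSeq, where 9 of the 10 members had an entry and UNC5B did not match, and motifs were counted on both strands.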

Additional observations from a re-analysis of the deposited data

Results flagged for a closer look

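The effect of a knockdown differed between cell lines, by the test of the difference itself, for 4 of the 10 genes. Of all genes, 3.42% differed with siNRP1#3, 18.2% with siNRP1#5, 0.747% with shNRP1#3 and 3.81% with shNRP1#5. Leaving out a replicate number leaves 1 sample in SUM159PT siNRP1#5 (replicate 2 or 3) or HS578T shNRP1#3 (replicate 1 or 2). Whether a call was lost for the replicate removed or for the smaller group was not tested. All 6 calls were lost without replicate 2 of every group. Without replicate 1, SLIT2 with shNRP1#5, UNC5B with siNRP1#3 and EFNB1 with shNRP1#3 were lost as well. Without replicate 3, EFNB2 with siNRP1#5 and EFNB1 with shNRP1#3 were lost. The calls of EFNB1 with shNRP1#3 and EFNB2 with siNRP1#5 were also lost after subtraction of foreign RNA. On log2(TPM + 0.1), 3 calls were lost, both SLIT2 calls among them. SLIT2 differed with siNRP1#5 (adjusted p = 0.0111 by edgeR), where the log2 fold changes were -0.10 in SUM159PT, 1.98 in HS578T and 0.53 in MDA-MB-231, and with shNRP1#5 (adjusted p = 0.0252), where they were 0.04, 2.08 and 0.89 in that order. EFNB1 differed with shNRP1#3 (adjusted p = 0.0278), at -1.45 in SUM159PT and 0.59 in MDA-MB-231, and with shNRP1#5 (adjusted p = 0.00152), at -1.57 and 0.90. UNC5B differed with siNRP1#3 (adjusted p = 0.0312), at -2.28 in SUM159PT and 1.63 in HS578T, where only the former passed on its own. EFNB2 differed with siNRP1#5 (adjusted p = 0.0261), at 2.23 in HS578T and 0.46 in MDA-MB-231. HS578T siNRP1#5 was the group with an estimated 13.2 to 24.8% of MDA-MB-231 RNA.

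The effect of the #5 sequence differed between siRNA and shRNA for 4 genes in MDA-MB-231, where 23.7% of all genes differed, as log2 differences of -1.59 for ROBO1, -0.94 for EFNB1, 1.17 for NTN4 and 1.05 for EPHB4. The NTN4 call was lost without any of 7 of the 18 samples. ROBO1 was lower with siNRP1#5 and higher with shNRP1#5, each against its own NT control, and the NT controls themselves differed by 1.26 for this gene. The log2 fold change of NRP1 was -4.88 with siNRP1#5 and -1.05 with shNRP1#5, so modality and depth of knockdown cannot be told apart.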

How the results depend on the processing

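Of the 22 knockdown calls, 9 were kept without any 1 sample of the cell line, and no call changed sign. Knockdown calls numbered 5 in SUM159PT, 14 in MDA-MB-231 and 3 for HS578T. In SUM159PT the number was 9 with DESeq2, 11 without a filter on low counts, 3 on log2(TPM + 0.1), and 2 to 6 with 1 sample left out. It was 2 without shNRP1#3 replicate 1 or 3 or shNT replicate 1, and 3 without siNRP1#3 replicate 1 or 3 or siNT replicate 1. In MDA-MB-231 it was 7 to 19 with 1 sample left out, with 7 without siNT replicate 2 and 9 without shNRP1#5 replicate 2 or 3 or siNRP1#3 replicate 2. In HS578T it was 6 with DESeq2, 6 without a filter and 2 to 4 with 1 sample left out. The 17 calls between the sequences were 9 on log2(TPM + 0.1), 9 on log2(TPM + 1) and 14 to 18 with 1 sample left out. The 4 calls between modalities were 8 without a filter and 3 to 5 with 1 sample left out. The 6 calls of unequal effect over the cell lines were 14 without a filter, 3 on log2(TPM + 0.1), and 0 to 4 with 1 replicate number left out. The 8 calls between the NT controls became 6 to 9 and the 22 between cell lines 20 to 22. The cause was not tested.

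With the replicate number as a block, HS578T knockdown calls rose from 3 to 6, by EFNB1 (siNRP1#3, adjusted p = 0.0364) and UNC5B (siNRP1#3 and siNRP1#5, 0.0190 and 0.0440), in comparisons whose numbers did not pair the samples. In the comparisons whose numbers paired the samples the block added EFNA1 and EPHB2 (SUM159PT siNRP1#3), EPHB2 (SUM159PT shNRP1#3) and EFNB2 (MDA-MB-231 siNRP1#5), and no other call of a named gene there changed. With the block, ROBO1 in SUM159PT siNRP1#5 did not pass (-1.10, adjusted p = 0.0635). That comparison has 2 pairs, with correlations of 0.132 and 0.37, and pairing was judged only where there were 3. Elsewhere the numbers are only shared, and EFNA1 did not pass between HS578T and MDA-MB-231 or SUM159PT (0.442 and 0.193).

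Subtraction of foreign RNA left 11 knockdown calls in MDA-MB-231 and 3 in HS578T at either level, and those lost were SLIT2 and ROBO1 with siNRP1#5 and NTN4 with shNRP1#3. For EPHB2, HS578T against MDA-MB-231 turned to -0.068 on log2(TPM + 0.1) and -0.066 on log2(TPM + 1). For EPHB4, HS578T against SUM159PT, near 0 and not called, turned to -0.027 without a filter, -0.10 with the block, -0.36 on log2(TPM + 0.1) and -0.36 on log2(TPM + 1). SLIT3 outside HS578T had too few counts for a test.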

Other observations

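EPHB3, a B-class Eph receptor singled out after its values were seen and so given without a test, had 1 to 4 counts in SUM159PT siNRP1#3 and 39 and 732 counts in siNRP1#5. In MDA-MB-231 it had 12 to 16 counts in siNRP1#3 and 211 to 331 in siNRP1#5. In HS578T it was at 7.33 ± 3.16 CPM (SD, n = 3) in siNRP1#3 and 16.6 ± 4.36 CPM in siNRP1#5. The latter samples held an estimated 13.2 to 24.8% of MDA-MB-231 RNA. In MDA-MB-231 siNRP1#5, EPHB3 was at 6.62 ± 2.12 CPM, a mean below those of both HS578T groups.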
